A study of Mus musculus with 16 samples.

Results

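The 7 genes described here, Mycn, Cp, Ddo, Map3k21, Bves, Bmerb1 and Ecrg4, were chosen from 18193 measured genes because their levels in newborn XX ovaries stood on the same side of the control level after loss of Runx1, loss of Foxl2 or loss of both, or stood farthest from it after loss of both. The values that chose them are the differences between each knockout and Control and the rank of the DKO among the knockouts, so these are given as a description without a test. The choice did not fix outright whether the effects of the separate losses added up in the DKO, or how the other probe sets of each gene read. Neither is independent of the choice: the interaction is built from the same differences, and the probe sets read the same RNA on the same arrays. What the related and adjoining genes did was not fixed by it. The groups were DKO ovaries (Runx1-/f, Foxl2-/-, with the Sf1-cre transgene), Foxl2 KO ovaries (Foxl2-/- and Runx1+/f, without the transgene), Runx1 KO ovaries (Runx1-/f with Sf1-cre, Foxl2+/+) and Control ovaries (Runx1+/f, Foxl2+/+, no transgene). Each group held 4 arrays, and each array carried RNA from a single newborn ovary freed of its mesonephros, 16 arrays in all. Every animal, Control included, carried at least 1 floxed Runx1 allele, and the Sf1-cre transgene, which acts in somatic cells of the gonad, came only with Runx1 loss, so that an effect of the transgene itself and an effect of Runx1 loss cannot be told apart. Foxl2 was missing from the whole animal and not from the ovary alone.

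RUNX1 and FOXL2 are transcription factors of the pregranulosa cells, the supporting cells that surround the germ cells of the fetal ovary and later nurse the oocyte. FOXL2, a forkhead protein, is known for keeping granulosa cells from taking on features of Sertoli cells, the supporting cells of the testis. Factors that act on a common set of genes can do so in steps that add, that multiply or that saturate, and the DKO is the genotype in which these differ.

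The labels were first set against the targeted genes. Foxl2 intensity lay at 570 to 839 in DKO and 484 to 890 in Foxl2 KO ovaries, against 2774 to 4241 in Control ovaries. Runx1 intensity lay at 932 to 2127 in Runx1 KO ovaries, under the Control range of 2142 to 2359, whereas the DKO range of 2111 to 2370 covered that of the Control, so the Runx1 probe set did not separate the DKO from Control. Of 13 oocyte markers, all read above background in every group, as did 9 of 10 pre-granulosa markers in DKO ovaries and 10 of 10 in the other groups. The pre-granulosa list nevertheless moved: 4 of the 10 fell in the DKO (Foxl2, Fst, Kitl and Esr2), 3 in the Foxl2 KO (Foxl2, Kitl and Esr2) and 0 in the Runx1 KO, and the summed intensity was 9631 to 9809 in DKO ovaries, 9373 to 11784 in Foxl2 KO ovaries and 10840 to 14668 in Runx1 KO ovaries, against 11073 to 16478 in Control ovaries. Every DKO sum lay below every Control sum, but the sum includes Foxl2. With Foxl2 left out, the DKO and Control sums overlapped through Control replicate 4 alone, and the other Control arrays stayed above every DKO array. The part of this shift in the results was not tested. The median intensity of an array ran from 134 to 177. Control replicate 4 stood apart by its erythroid markers (summed intensity 21482, with at most 579 on every other array), and Runx1 KO replicate 2 by its muscle markers (14487, with at most 2377 elsewhere). A single ovary is a mixture of cells, and in such samples fewer cells of a type and less RNA per cell cannot be told apart.

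Mycn, Cp and Ddo followed a common order, with the DKO highest, the single knockouts between, and Control lowest. Mycn (chr12:12936093-12941836, build GRCm38.p6) encodes a MYC-family transcription factor that pairs with MAX and binds E-boxes in genes of growth and division. Its brightest probe set read 2546, 2538, 2346 and 2739 intensity units in DKO ovaries, 2237, 2002, 1963 and 2187 in Foxl2 KO ovaries and 2035, 2039, 1626 and 1929 in Runx1 KO ovaries, against 1119, 1346, 1288 and 978 in Control ovaries. Every knockout array stood above every Control array, and every DKO array above every array of either single knockout. On the log2(intensity + 16) scale the differences from Control were 1.10 in the DKO, 0.83 in the Foxl2 KO and 0.69 in the Runx1 KO (SE 0.12 each).

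Cp (chr3:19956933-20009750) encodes ceruloplasmin, the copper-carrying ferroxidase that oxidises iron as it leaves cells. It read 493, 522, 581 and 542 in DKO ovaries, 391, 395, 325 and 428 in Foxl2 KO ovaries and 458, 291, 277 and 370 in Runx1 KO ovaries, against 150, 193, 183 and 155 in Control ovaries. The 4 groups kept the order seen for Mycn, with no overlap between the DKO and any other group, although the single knockouts overlapped each other. The log2 differences from Control were 1.57 (DKO), 1.11 (Foxl2 KO) and 0.95 (Runx1 KO), with an SE of 0.15.

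Ddo (chr10:40630011-40681847) encodes D-aspartate oxidase, a peroxisomal enzyme that breaks down D-aspartate. Its intensities were 176, 183, 209 and 206 in DKO ovaries, 93.3, 110, 150 and 146 in Foxl2 KO ovaries and 119, 88.3, 98.5 and 155 in Runx1 KO ovaries, against 32.4, 45.6, 54.1 and 51.2 in Control ovaries. The gene was dim in Control and lay clear of it in every knockout ovary. Its log2 differences were 1.77, 1.18 and 1.07 in DKO, Foxl2 KO and Runx1 KO ovaries (SE 0.18).

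Bmerb1 and Ecrg4 had the highest folds in the DKO. Bmerb1 (chr16:13986612-14105052) carries a bMERB domain, a fold known for binding RAB GTPases in other proteins. It read 1213, 1301, 1258 and 1771 in DKO ovaries, 960, 636, 771 and 798 in Foxl2 KO ovaries and 743, 325, 419 and 494 in Runx1 KO ovaries, against 153, 231, 289 and 241 in Control ovaries. The DKO again cleared every other group. The levels were 5.79-fold, 3.34-fold and 2.05-fold those of Control in DKO, Foxl2 KO and Runx1 KO ovaries (log2 differences 2.53, 1.74 and 1.03, SE 0.23).

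Ecrg4 (chr1:43730602-43742564) encodes a small secreted precursor protein, also called augurin. It read 2568, 1077, 1495 and 1964 in DKO ovaries, 2096, 716, 628 and 1028 in Foxl2 KO ovaries and 1712, 516, 653 and 423 in Runx1 KO ovaries, against 154, 419, 265 and 318 in Control ovaries. No knockout array fell into the Control range, but the 3 knockout groups overlapped each other, and within each of them replicate 1 was the highest array while replicate 1 was the lowest of the Control arrays. The log2 differences of 2.56 (DKO), 1.81 (Foxl2 KO) and 1.32 (Runx1 KO) carried the largest SE of the 7 genes, 0.45.

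Map3k21 and Bves did not rank the DKO first. Map3k21 (chr8:125910450-125947440) encodes a mixed-lineage kinase, a family that feeds the JNK stress pathway. It read 103, 98.3, 106 and 151 in DKO ovaries, 143, 169, 134 and 138 in Foxl2 KO ovaries and 124, 75.9, 95.9 and 81.7 in Runx1 KO ovaries, against 46.8, 27.6, 31.8 and 37.7 in Control ovaries. All knockout arrays lay above Control, and the DKO lay among the single knockouts, with 3 of its 4 arrays under every Foxl2 KO array. The log2 differences were 1.33, 1.65 and 1.08 in DKO, Foxl2 KO and Runx1 KO ovaries (SE 0.17).

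Bves (chr10:45335735-45372484), also known as Popdc1, encodes a Popeye-domain membrane protein that binds cyclic AMP and is best known from heart and skeletal muscle. It was the only one of the 7 that stood lower in the knockouts. It read 15.5, 21.7, 7.98 and 34.95 in DKO ovaries, 25.3, 11.5, 13.6 and 7.57 in Foxl2 KO ovaries and 12.8, 20.5, 34.0 and 17.0 in Runx1 KO ovaries, against 89.0, 104, 60.5 and 88.7 in Control ovaries. Y-linked genes, which an XX ovary lacks, reached a group mean of 5.48 on the log2 scale, and the Bves means of 5.12 (DKO), 4.90 (Foxl2 KO) and 5.18 (Runx1 KO) all lay under it, against 6.65 in Control. The level was therefore at least 2.25-fold lower in each knockout group than in Control, and the order among the knockouts has no meaning at such intensities. Muscle markers, summed over 8 genes, read 1906 to 2341 in DKO ovaries, 1935 to 2377 in Foxl2 KO ovaries and 1377 to 14487 in Runx1 KO ovaries, against 930.2 to 1546 in Control ovaries, and none of the 8 passed in any knockout. The DKO and Foxl2 KO sums thus lay above Control, opposite to Bves.

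**Figure D1:**
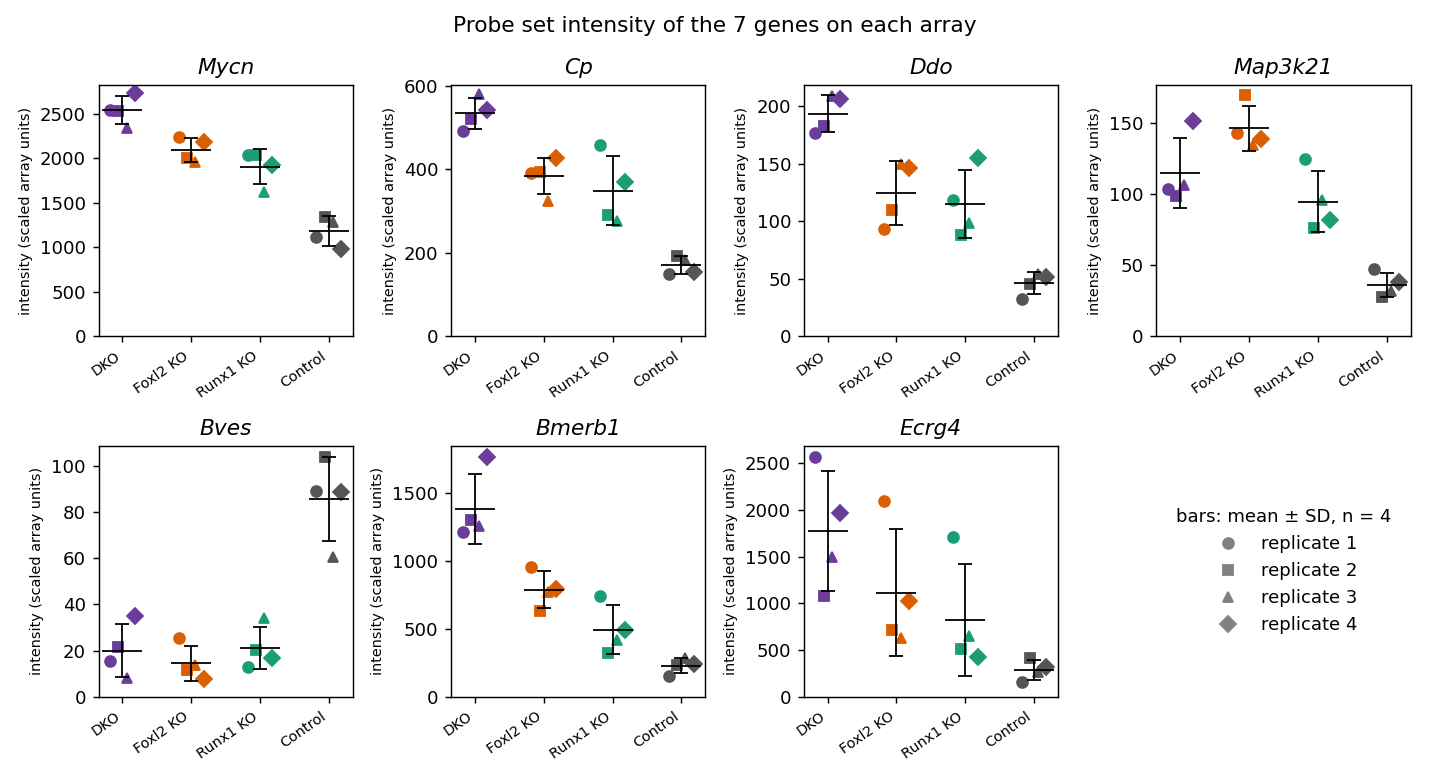
Intensity of the brightest probe set of each gene (vertical axis, scaled array units, from 0) on each of 16 arrays, by group along the horizontal axis, with marker shape for the replicate and bars for mean ± SD (n = 4). Every knockout array lies above every Control array for 6 genes and below for Bves, a gap that the choice of the genes favoured. The share of all genes with such a gap from Control was not counted. Replicate 1 tops each knockout group for Ecrg4, at 2568 (DKO), 2096 (Foxl2 KO) and 1712 (Runx1 KO).

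Counted by the limma test at an adjusted p of 0.05, which these contrasts only describe since they chose the genes, the number called was 7 of 7 in the DKO against Control (2.13% of all genes were called there), 6 of 7 in the Foxl2 KO (background 1.52%) and 5 of 7 in the Runx1 KO (background 0.121%). Ecrg4 was the gene not called in the Foxl2 KO, and Bmerb1 and Ecrg4 were those not called in the Runx1 KO. The Runx1 KO count is fragile, since it ran from 0 to 5 when single arrays were left out and was 0 once replicate 1 of the Runx1 KO was dropped. Dropping replicate 4 of that group, or replicate 1 or 2 of Control, left 1 call. Dropping Control replicate 4, with the erythroid markers, left 2, and dropping Runx1 KO replicate 2, with the muscle markers, left 3. Over all genes, 13 were called in the same direction in all 3 knockouts, 6 higher and 7 lower, and 5 of these 13 are Mycn, Cp, Ddo, Map3k21 and Bves. The DKO set directly against the Foxl2 KO gave 0 calls among the 7 genes (0.0605% of all genes). For Runx1 loss this contrast relies on the genotype label, since Runx1 itself differed by only -0.22 ± 0.19 (SE) in it. The DKO arrays of Mycn, Cp, Ddo and Bmerb1 lay wholly above the Foxl2 KO arrays, but the rank of the DKO was part of the choice. How many of all genes show such a gap was not counted. Against the Runx1 KO, Bmerb1 was the 1 gene called (0.989% of all genes), at 2.83-fold its level.

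The choice of genes did not settle whether the losses combined additively. The interaction, the DKO difference less the sum of both single differences on the log2 scale, was negative for 6 of the 7 genes, with a median of -0.48 where the median of all genes was -0.03. Because genes that already stand far from Control in each single knockout were sought, the test is not independent of the choice. The interaction also takes Runx1 loss in the DKO from the genotype label, since the Runx1 probe set did not separate the DKO from Control. None of the 7 was called by limma, against 0.011% of all genes (2 of 18193, with 970 at an unadjusted p under 0.05).

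For Mycn the interaction was -0.41 ± 0.18 (SE, 95% interval -0.78 to -0.04, adjusted p = 0.908), and for Cp it was -0.49 ± 0.22 (-0.95 to -0.03, adjusted p = 0.910). Ddo gave -0.48 ± 0.25 (-1.02 to 0.06, adjusted p = 0.924). On their brightest probe sets these 3 estimates were of much the same size, none past the threshold. Over all probe sets of a gene the interaction ran from -0.41 to 0.10 for Mycn, from -0.56 to 0.23 for Cp and from -0.48 to 0.44 for Ddo. Bmerb1 gave -0.24 ± 0.33 (-0.94 to 0.46, adjusted p = 0.966) and Ecrg4 -0.57 ± 0.63 (-1.91 to 0.78, adjusted p = 0.959), with intervals wide enough to hold both a clear shortfall and a clear excess.

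Map3k21 departed most among the genes measured above background. Its interaction of -1.40 ± 0.24 (-1.90 to -0.90) ranked 3 of 18193 genes by p, with an adjusted p of 0.143 that ranged from 0.051 to 0.948 over the other settings tried and the arrays left out in turn. The DKO difference was 1.33, against 2.73 for the sum of the separate differences on the log2 scale. Bves gave 1.69 ± 0.34 (0.96 to 2.41, adjusted p = 0.283, rank 10), but all 3 knockout means that enter it lay under background, so the sum of -3.21 lay beyond what the array could read.

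**Figure D2:**
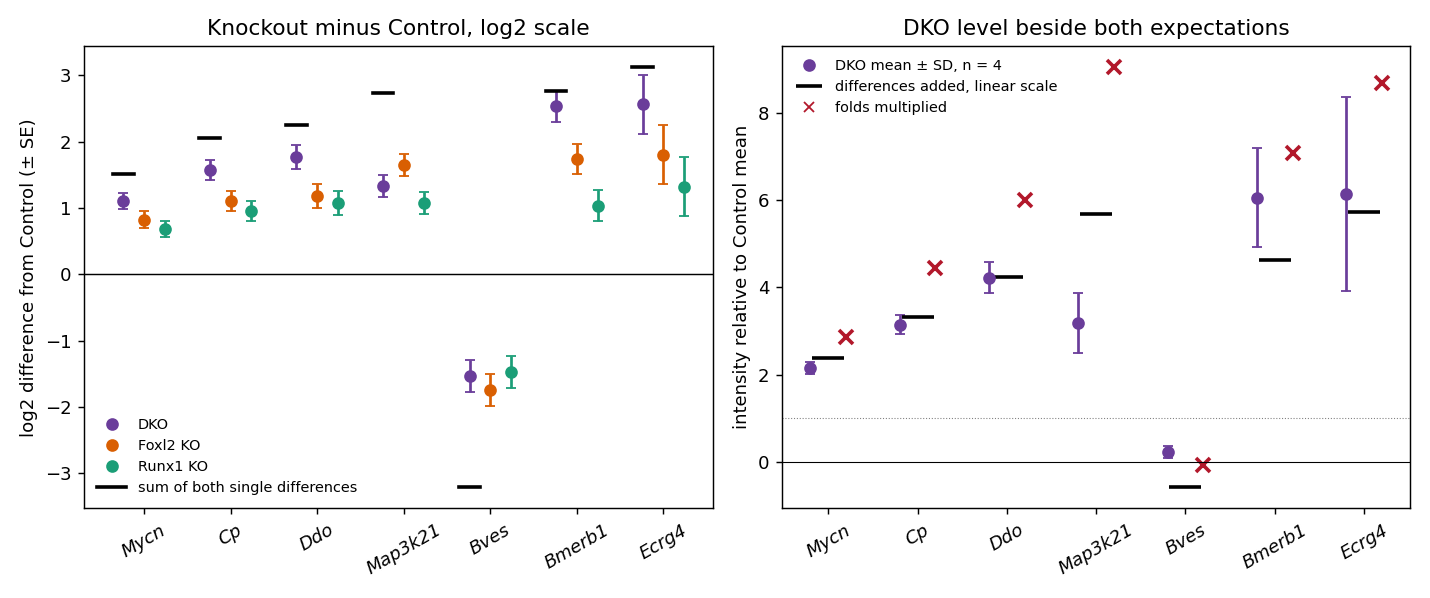
Left, log2 difference from Control (± SE) of each gene in DKO, Foxl2 KO and Runx1 KO ovaries, with a black line at the sum of both single differences; right, DKO intensity relative to the Control mean (mean ± SD, n = 4) beside the level given by adding the single differences on the linear scale and by multiplying the single folds. The DKO point of every gene lies nearer to 0 than its black line, for Map3k21 at 1.33 against 2.73, and all Bves knockout points rest on levels under background; on the linear scale Ddo (193) meets the added level (194).

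Read on the linear intensity scale, the interaction changed sign for Bmerb1 and Ecrg4 and kept its sign for the other genes. The DKO means were 2542 for Mycn, 534 for Cp and 193 for Ddo, against 2822, 564 and 194 when the single-knockout differences were added to the Control mean. Multiplying the folds gave 3381, 756 and 276 for these 3 genes, each above the highest DKO array. These levels carry the error of the single-knockout and Control means, and the log2 interactions that take it into account were not called. The linear interaction was -279 ± 165 intensity units (SE) for Mycn, -29.3 ± 51.7 for Cp and -0.629 ± 22.4 for Ddo.

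Bmerb1 averaged 1386 in the DKO, above the 1058 from adding and below the 1619 from multiplying, and its linear interaction was 328 ± 173. Ecrg4 averaged 1776, against 1654 from adding and 2506 from multiplying, with a linear interaction of 122 ± 556. The sign of the interaction for these 2 genes was thus negative on the log2 scale and positive on the linear scale, and all 4 of their 95% intervals held 0. Map3k21 stayed under either expectation, at 115 against 205 (added) and 326 (multiplied), with a linear interaction of -89.7 ± 18.7.

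The 7 genes were covered by 23 probe sets, which offer other readings of the same RNA. Of these, 17 were called in the DKO against Control (1.23% of 45037 probe sets), 11 in the Foxl2 KO (0.904%) and 5 in the Runx1 KO (0.0577%), and 0 in the interaction (0.00222%). The 8 probe sets of Cp all read higher in every knockout, with log2 differences of 1.06 to 1.67 in the DKO, 0.61 to 1.25 in the Foxl2 KO and 0.31 to 0.98 in the Runx1 KO. The 3 probe sets of Ecrg4 and the 4 of Ddo also all read higher, from 2.11 to 2.56 and from 0.52 to 1.77 in the DKO.

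Some probe sets departed from their gene's brightest. The dimmer Map3k21 probe set gave 0.32 ± 0.26 in the DKO, 0.80 ± 0.26 in the Foxl2 KO and 0.17 ± 0.26 in the Runx1 KO (SE), and read 55.5 to 93.3 in DKO ovaries, 63.9 to 132 in Foxl2 KO ovaries and 48.3 to 94.0 in Runx1 KO ovaries, against 31.0 to 81.9 in Control ovaries. On it the knockout groups overlapped Control, and its interaction was -0.64 ± 0.37. The second Mycn probe set differed from Control by 0.68 in the DKO, 0.54 in the Foxl2 KO and 0.43 in the Runx1 KO, and the third stayed under 15.3 intensity units on every array. The dimmer Bves probe set read at most 3.28 in DKO ovaries, 2.62 in Foxl2 KO ovaries and 3.12 in Runx1 KO ovaries, against 17.1 to 43.6 in Control ovaries. Its knockout arrays thus also lay below Control. Its Control mean of 5.46 on the log2 scale, however, was itself under the background of 5.48, so it gives no second reading above background. Bmerb1 had a single probe set and no second reading.

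**Figure D3:**
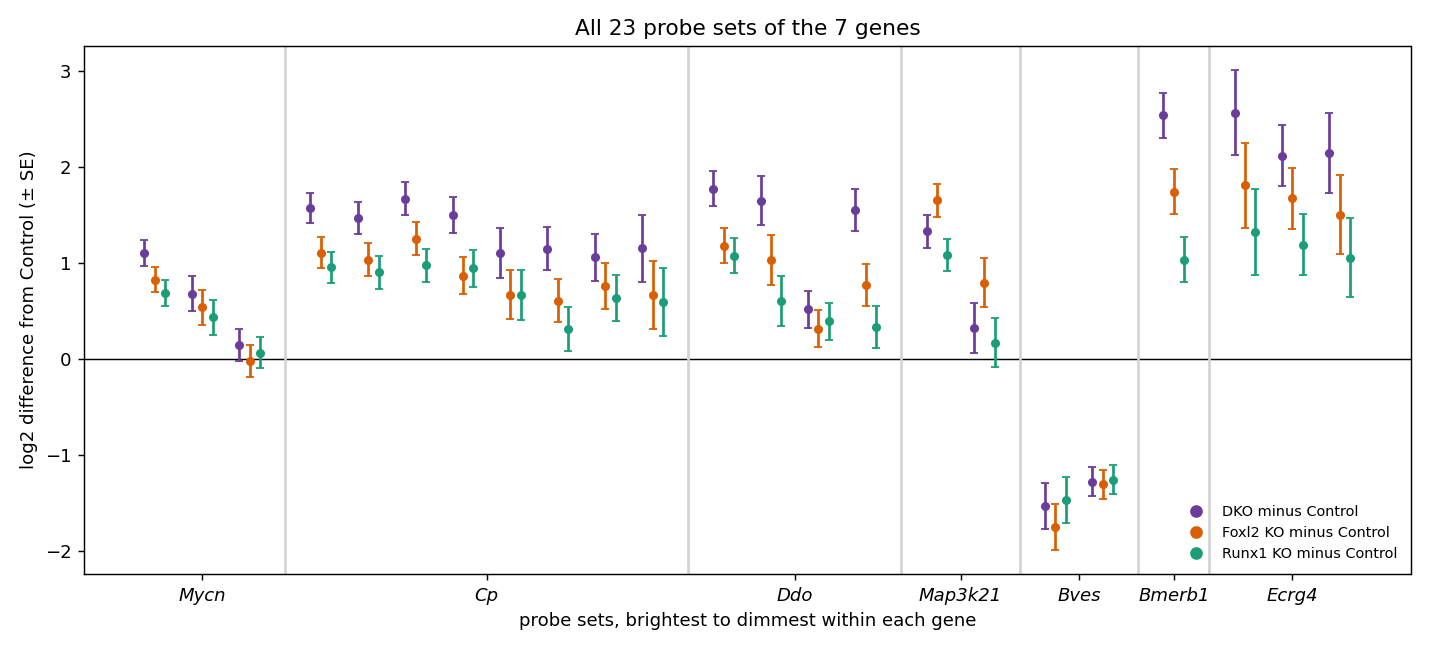
Log2 difference from Control (vertical axis, ± SE) for each of the 23 probe sets, brightest to dimmest within each gene along the horizontal axis, in DKO, Foxl2 KO and Runx1 KO ovaries. All 8 Cp probe sets lie above 0 and both Bves probe sets below it, whereas the dimmer Map3k21 probe set lies at 0.32, 0.80 and 0.17.

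Over the 16 arrays the 6 genes that stood higher ran alongside each other. Pearson's r of the log2 levels was 0.96 between Mycn and Cp, 0.95 between Cp and Bmerb1 and 0.94 between Cp and Ddo, and all these values hold the group differences that chose the genes. With the group means taken out, r over the 21 pairs had a median of 0.19 and ran from -0.44 to 0.66. Cp with Bmerb1 and Bmerb1 with Ecrg4 reached 0.66 within groups, and Mycn with Cp 0.55, while Mycn with Ddo was at 0.01. The arrays share their scaling, so these are descriptions of 16 arrays and no more.

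Podxl, a sialomucin of podocytes and other epithelia, was among the 3 genes most like Mycn (r = 0.93), Ddo (0.90) and Bmerb1 (0.95). Its log2 differences from Control were 0.91 in DKO ovaries, 0.65 in Foxl2 KO ovaries and 0.41 in Runx1 KO ovaries (SE 0.12 each), given as a description because likeness to the 7 genes picked it. Rassf10, a protein with a Ras-association domain, was nearest to Bmerb1 (r = 0.95), Aldh1a3, a retinaldehyde dehydrogenase, was among the nearest to Cp (0.93) and Ecrg4 (0.90), and Rras2, a Ras-like GTPase, to Mycn (0.93). Ecrg4 also had Plscr2, a phospholipid scramblase, among its 3 nearest genes (0.89). The genes most like Map3k21 were Mmab and Mccc1, mitochondrial enzymes of cobalamin handling and leucine breakdown, and Zfp874a, a zinc finger gene (r = 0.86, 0.84 and 0.83), and those most like Bves were Col8a1, a collagen chain, Cerox1 and Adamts16, a secreted metalloproteinase (0.86, 0.82 and 0.82). The likeness was ranked by positive r among genes with a mean log2 of at least 7, so that Ddo, Map3k21 and Bves could stand in no list, and genes that ran opposite to Bves, the other 6 included, could not stand in its list.

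Pax8, a transcription factor of the rete ovarii and the duct epithelia beside the ovary, moved with several of the genes. It read 655, 622, 869 and 658 in DKO ovaries, 470, 506, 460 and 527 in Foxl2 KO ovaries and 453, 171, 144 and 271 in Runx1 KO ovaries, against 55.7, 258, 144 and 154 in Control ovaries. Like Ecrg4, its highest Runx1 KO array and its lowest Control array were replicate 1. Within groups r with Pax8 was 0.80 for Cp, 0.65 for Bmerb1, 0.56 for Ecrg4, 0.52 for Ddo and 0.39 for Mycn, and -0.09 for Map3k21 and -0.34 for Bves. Pax8 was the 1 gene called, in the DKO and the Foxl2 KO, of 6 rete ovarii and mesonephric duct markers, and the summed intensity of the 6 was 3243 to 4001 in DKO ovaries, 3096 to 3385 in Foxl2 KO ovaries and 2071 to 2929 in Runx1 KO ovaries, against 2508 to 3392 in Control ovaries. Of the 6, 5 stood higher than Control in the DKO (median difference 0.60), 4 in the Foxl2 KO (0.33) and 5 in the Runx1 KO (0.52). The medians of all genes were 0.04, 0.05 and 0.04. Emx2, the brightest of this list, differed by -0.07, -0.10 and -0.40 in the same order. Over 10 Sertoli markers the sum was 5198 to 5877 in DKO ovaries, 3053 to 5420 in Foxl2 KO ovaries and 3529 to 4291 in Runx1 KO ovaries, against 3654 to 5059 in Control ovaries. The sum weighs the brighter genes most. Counted by gene, 5 of the 10 rose in the DKO (median difference of the list 1.12), 5 in the Foxl2 KO (1.06) and 1, Fgf9, in the Runx1 KO (0.22). Sox9, Dmrt1, Dhh and Cst9 rose in both the DKO and the Foxl2 KO, Dhh by 2.52 in the DKO and by 2.30 in the Foxl2 KO. In either group 8 of the 10 stood higher and 0 were called lower. Aard, the brightest of the list, differed by -0.86 in the Foxl2 KO (limma, adjusted p = 0.052) and Ptgds by -0.37. The part of these cells in the results was not tested.

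Genes of the pathways that the 7 genes belong to were mostly not called. Of 118 measured genes in 8 lists, 3 passed in the DKO and 3 in the Foxl2 KO (2.54% in each, near the background of all genes), 0 in the Runx1 KO and 0 in the interaction. Their medians were 0.04, 0.01 and 0.02 in DKO, Foxl2 KO and Runx1 KO ovaries, where those of all genes were 0.04, 0.05 and 0.04.

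In the MYC and MAX network, 1 of 13 genes passed. Mlxipl, which encodes ChREBP, a sugar-responsive factor that pairs with MLX, read 127, 124, 140 and 236 in DKO ovaries, 76.8, 123, 117 and 159 in Foxl2 KO ovaries and 123, 113, 81.6 and 126 in Runx1 KO ovaries, against 55.2, 49.9, 56.1 and 51.6 in Control ovaries. It rose in the DKO by 1.28 ± 0.21 (adjusted p = 0.00285) and in the Foxl2 KO by 0.93 ± 0.21 (adjusted p = 0.0346), and it differed by 0.86 ± 0.21 in the Runx1 KO (adjusted p = 0.231). The Foxl2 KO call was lost when any Control array, or replicate 2, 3 or 4 of the Foxl2 KO, was left out, at adjusted p up to 0.119. Every knockout array of Mlxipl lay above Control, as for the 6 of the 7 genes that stood higher. Of 15 known MYC targets none passed in any knockout, and the median difference was 0.08 in DKO ovaries, -0.06 in Foxl2 KO ovaries and -0.01 in Runx1 KO ovaries. Ncl, the nucleolar protein nucleolin, had the smallest p of these in the DKO, with a difference of 0.26 ± 0.13 (adjusted p = 0.462).

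In copper and iron handling, 1 of 20 genes passed and it moved opposite to Cp. Slc40a1 encodes ferroportin, the iron exporter whose cargo ceruloplasmin oxidises. It read 1466, 1758, 1355 and 1926 in DKO ovaries and 1899, 1526, 1434 and 1119 in Foxl2 KO ovaries, but 2716, 2822, 2710 and 2760 in Runx1 KO ovaries, against 2707, 2921, 3279 and 3403 in Control ovaries. Slc40a1 fell by 0.92 in the DKO (SE 0.16, adjusted p = 0.00371) and by 1.05 in the Foxl2 KO (adjusted p = 0.00171), and was also lower in the DKO than in the Runx1 KO by a log2 difference of -0.77 (adjusted p = 0.0273). Its Runx1 KO difference was -0.15 ± 0.16 (adjusted p = 0.856). On the second highest probe set both calls against Control were lost, at differences of -0.90 in the DKO (adjusted p = 0.127) and -0.98 in the Foxl2 KO (adjusted p = 0.103).

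In the Popeye family, 1 of 10 genes passed. Popdc3, which lies 17.3 kb from Bves and encodes a related Popeye-domain protein, read 56.8, 25.4, 25.3 and 36.7 in DKO ovaries, 34.7, 27.5, 41.8 and 23.3 in Foxl2 KO ovaries and 59.1, 122, 61.0 and 42.3 in Runx1 KO ovaries, against 120, 225, 120 and 107 in Control ovaries. It fell by 1.59 in the DKO (SE 0.27, adjusted p = 0.00400) and by 1.69 in the Foxl2 KO (adjusted p = 0.00344). In the Runx1 KO the difference was -0.89 ± 0.27 (adjusted p = 0.418), and the array that overlapped Control, at 122, was replicate 2, the array with the high muscle markers. Without that array the difference was -1.13 (adjusted p = 0.162).

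No gene passed in the lists drawn up around D-aspartate and the NMDA receptor (18 genes), the mixed-lineage kinases and JNK (18), the bMERB family and its RAB partners (13) or the receptors and processing of ECRG4 (11). The smallest p values in the DKO belonged to Grin2b, an NMDA receptor subunit (0.72 ± 0.26, adjusted p = 0.217), Map3k10, another mixed-lineage kinase (0.53 ± 0.16, adjusted p = 0.113), Micall2, a bMERB protein of cell junctions (-1.06 ± 0.28, adjusted p = 0.0674), and Pcsk5, a proprotein convertase (-0.50 ± 0.21, adjusted p = 0.331).

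The neighbours of the 7 genes were read as the 3 nearest measured genes on either side, 42 in all. Of these, 1 rose and 2 fell in the DKO, 1 rose and 1 fell in the Foxl2 KO, and 0 passed in the Runx1 KO. Of all genes, 2.13%, 1.52% and 0.121% passed in these groups, and so few neighbours do not settle whether their share differs. Besides Popdc3, the gene that fell was Mettl24, which encodes a methyltransferase-like protein and lies 0.598 kb from Ddo. Mettl24 read 301, 314, 314 and 189 in DKO ovaries, 394, 400, 275 and 269 in Foxl2 KO ovaries and 445, 332, 368 and 319 in Runx1 KO ovaries, against 607, 907, 565 and 454 in Control ovaries. All knockout arrays lay below Control, opposite to Ddo, with differences of -1.12 ± 0.22 in the DKO (adjusted p = 0.0109), -0.87 ± 0.22 in the Foxl2 KO (adjusted p = 0.0658) and -0.73 ± 0.22 in the Runx1 KO (adjusted p = 0.398).

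The neighbour that rose was Ifitm7, a member of the interferon-induced transmembrane family, whose gene overlaps Bmerb1. It read 97.4, 134, 109 and 79.6 in DKO ovaries, 72.7, 90.3, 78.2 and 106 in Foxl2 KO ovaries and 73.1, 43.9, 65.8 and 86.6 in Runx1 KO ovaries, against 34.4, 42.9, 36.5 and 41.0 in Control ovaries. The differences were 1.13 ± 0.17 in the DKO (adjusted p = 0.00173), 0.90 ± 0.17 in the Foxl2 KO (adjusted p = 0.0129) and 0.58 ± 0.17 in the Runx1 KO (adjusted p = 0.398), the order of Bmerb1 at lower folds. The Foxl2 KO call of Ifitm7 was lost without Foxl2 KO replicate 4 (adjusted p = 0.0516). Where the probe set lies relative to the stretch shared with Bmerb1 was not examined.

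**Figure D4:**
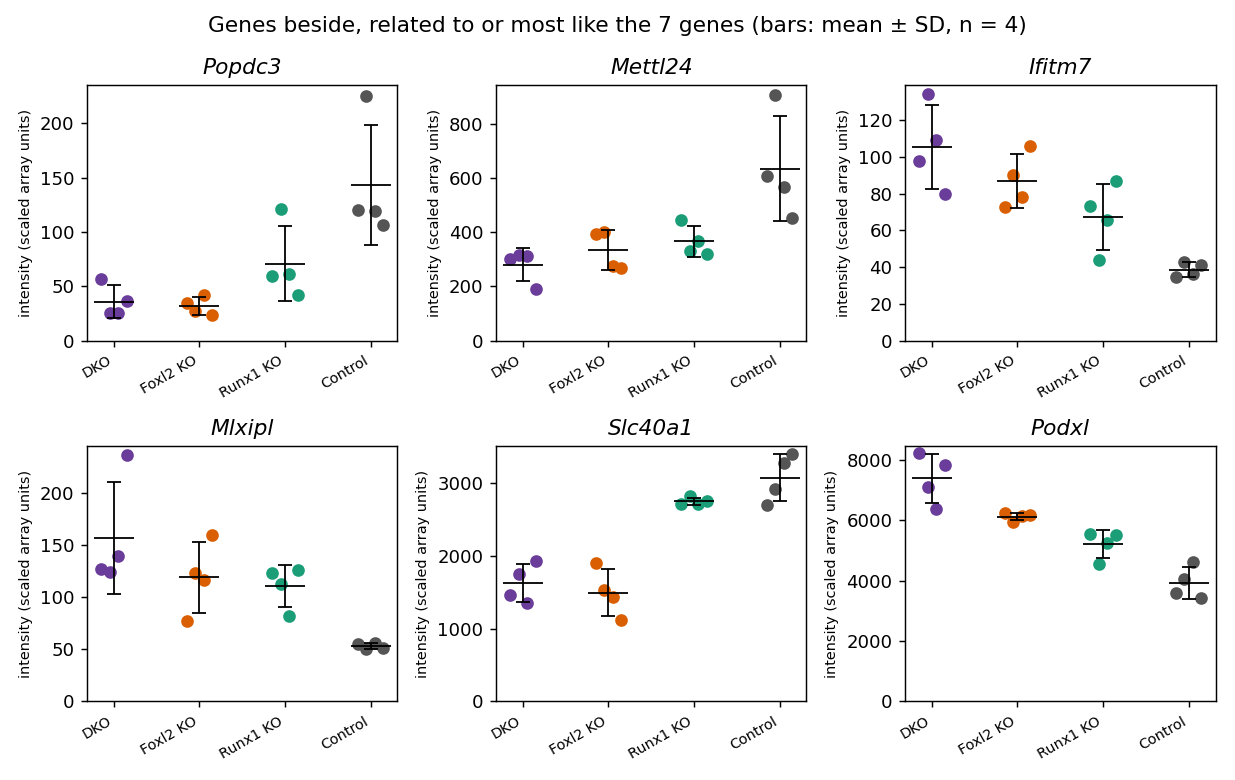
Intensity (vertical axis, scaled array units, from 0) on each array of 6 genes beside, related to or most like the 7, by group, with bars for mean ± SD (n = 4). Popdc3, Mettl24 and Slc40a1 stand lower in the DKO than in Control and Ifitm7, Mlxipl and Podxl higher; Slc40a1 in the Runx1 KO (2710 to 2822) overlaps Control.

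Promoter sequence was at hand for 5 of the 7 genes, 6 promoters in all, each running from 250 bases before to 50 bases after the start site (RefSeq, GRCm38.p6). They are described because the genes moved together and both missing factors bind DNA. The letters searched on both strands were TGTGGT or TGCGGT, a core that RUNX proteins bind, TAAACA, a forkhead core, CACGTG, the E-box of MYC proteins, and AAGGTCA, a site of NR5A1. Over 32851 promoters of the same length, 22.4% held a RUNX core, 13.4% the forkhead core, 7.15% the E-box and 4.72% the NR5A1 site. The 6 promoters held 0, 0, 1 and 0 of these. The match is in the Ddo promoter, which is shown with CACGTG in capitals, starting at base -127 from the start site, above that of Mycn, whose protein is known to bind those letters and whose own promoter window has none of the 4.
Ddo promoter, chr10:40629761-40630060, plus strand: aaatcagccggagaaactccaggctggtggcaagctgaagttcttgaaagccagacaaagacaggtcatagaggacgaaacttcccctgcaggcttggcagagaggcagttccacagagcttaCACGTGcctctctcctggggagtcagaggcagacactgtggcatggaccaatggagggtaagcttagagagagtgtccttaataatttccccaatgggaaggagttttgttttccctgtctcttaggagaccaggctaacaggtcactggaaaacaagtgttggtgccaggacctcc
Mycn promoter, chr12:12941787-12942086, minus strand: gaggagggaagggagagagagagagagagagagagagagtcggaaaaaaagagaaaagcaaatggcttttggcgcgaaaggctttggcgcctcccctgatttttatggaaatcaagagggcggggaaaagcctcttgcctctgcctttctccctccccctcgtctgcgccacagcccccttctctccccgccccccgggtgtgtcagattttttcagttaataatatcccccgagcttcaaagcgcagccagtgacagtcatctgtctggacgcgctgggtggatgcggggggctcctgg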

How the data were processed

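RNA of 16 single newborn XX ovaries, 4 per genotype, had been amplified by the authors from 50 ng and hybridised to Affymetrix Mouse Genome 430 2.0 arrays. The deposited values are linear probe set intensities, 45101 per array; in the deposited table the mean of each array without the highest and lowest 2% of values was 500, and 11.2 to 15.6% of values lay below 16. The submitters' processing notes name Affymetrix Expression Console 1.2. The methods describe RMA and a one-way analysis of variance, which is not the scale of these values, so intensities were not rescaled again.

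Values were taken as log2(intensity + 16). Probe sets that name a single gene (34945) were kept, symbols were updated through Entrez IDs to RefSeq GRCm38.p6, and the probe set with the highest mean stood for each of 18193 genes. limma 3.58.1 in R 4.3.3 fitted 4 group means over all arrays, with the knockout contrasts and the interaction, and p-values were adjusted by Benjamini-Hochberg over all genes. The 7 genes, the related lists, the markers and the rule for named genes (every gene of the lists called in a knockout or the interaction, otherwise that with the smallest p in the DKO; called neighbours; the 3 most correlated genes with a mean log2 of at least 7) were chosen with earlier results of these data known. The background level (the highest group mean of a Y-linked gene) and Pax8 among the correlations were chosen after values were seen. The main fit did not pair arrays by replicate number, because the labels do not say what the numbers stand for. Precision is set by 4 arrays per group, and the spread between ovaries is the error measured. Alternatives changed the offset, the scaling, the choice of probe set, the filter on low levels, the test and the arrays included.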

Additional observations from a re-analysis of the deposited data

How the results depend on the processing

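None of the 7 interactions was called under any of the 13 other settings, or with any of the 16 arrays left out, except that Ddo, Map3k21 and Bves could not be fitted when only genes above the median level were kept. The count of genes called in the DKO against Control was 7 with any array left out and 4 when only genes above the median level were kept, a setting that retains 4 of the 7. In the Foxl2 KO it was 6, with 6 to 7 over arrays left out, Ecrg4 being added without Runx1 KO replicate 1, and 4 with genes above the median level. The second highest probe set left 5 in the DKO, without Mycn and Map3k21, and 4 in the Foxl2 KO, without Mycn, Ddo and Map3k21 but with Ecrg4. The mean of all probe sets also lost the Mycn call in the Foxl2 KO and added that of Ecrg4. In the Runx1 KO it was 5, with 0 to 5 over arrays left out, 3 without an offset, 1 with the mean of all probe sets, 1 with the second highest probe set, 2 with genes above the median level, 2 with the replicate block and 3 with the methods' analysis of variance. Mycn lost its Runx1 KO call with 15 of the 16 arrays left out in turn, at adjusted p up to 0.159. In the DKO against the Runx1 KO the count was 1, and 1 to 2 over arrays left out, and 2 with an offset of 50, with quantile normalization, with the mean of all probe sets, with genes above the median level and with array weights; the gene added was Cp or Ddo (over arrays left out, Cp without Runx1 KO replicate 1 and Ddo without Runx1 KO replicate 4). Related genes called, 3 each in the DKO and the Foxl2 KO, were 1 each with genes above the median level, and over arrays left out ran from 3 to 4 in the DKO and 2 to 3 in the Foxl2 KO; the Mlxipl call in the Foxl2 KO was lost with 7 of the 16 arrays left out.

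The Map3k21 interaction ran from -1.76 to -0.64 over settings and from -1.53 to -1.28 over arrays left out. The Ddo interaction turned to 0.0206 with the second highest probe set. The Bves difference of DKO minus Runx1 KO, -0.06, turned to 0.0106 with a floor of 16 and ran from -0.25 to 0.12 over arrays left out (0.09 without Runx1 KO replicate 3 and 0.12 without DKO replicate 3), at levels under background. Same-numbered arrays of different groups correlated above 0.1 in 1 of 24 pairs (median r -0.03). This shows no broad likeness by number, but it cannot exclude that same-numbered ovaries shared a litter or a run. Among the 7 and the related genes the replicate block changed only the Runx1 KO count. Mettl24, a neighbour of Ddo, was called in the Foxl2 KO with the block (limma, adjusted p = 0.0263). That call appeared under 5 of the 13 other settings, the block included, and with 2 of the 16 arrays left out in turn. Over all 18193 genes the replicate block gave 310 calls in the DKO (388 without it), 220 in the Foxl2 KO (276), 15 in the Runx1 KO (22), 130 in the DKO against the Runx1 KO (180), 7 in the DKO against the Foxl2 KO (11) and 0 for the interaction (2). Over the other settings and arrays left out these all-gene counts ran from 277 to 465, 183 to 329, 11 to 27, 111 to 248, 3 to 18 and 0 to 4 in the same order. The cause of these changes was not tested. Bves, Ddo and Map3k21 lie near background in Control or knockout ovaries, which limits how well their folds are known.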
